A study of Homo sapiens with 44 samples.

Results

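Collagen genes were taken as the protein-coding genes whose symbol in GENCODE release 29 has the form COL, a number, A and a number, which found 44 of 19922 protein-coding genes and of 58721 identifiers counted. All 44 were read in RNA-seq libraries of A549, a human lung adenocarcinoma cell line, and of xenograft tumours grown from it. WT is the parental line, and het1, het2 and homo are isogenic lines in which p300 was truncated to lack TAZ2, a transcription factor binding domain of this acetyltransferase. The names het and homo are read as heterozygous and homozygous, that is, truncation of 1 allele in het1 and het2 and of every allele in homo, and the labels give no further detail of the alleles. The WT, het1, het2 and homo lines were each sequenced in culture, with 3 libraries per line, and as tumours collected at day 30, with 4 libraries per line. WT and het1 tumours were also given either DMSO, the vehicle, or SAHA (vorinostat, an inhibitor of histone deacetylases) for 4 weeks, with 4 libraries in each of these groups, which makes 12 groups and 44 libraries. Each of het1, het2 and homo is 1 line, so the truncation and anything else that sets a line apart from WT cannot be told apart. Whether replicate libraries stem from different cultures or mice is not stated in the labels, so p-values measure only the spread between these libraries, which may be technical.

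Collagens are proteins of the extracellular matrix whose chains wind around each other into a stiff helix, often from the products of several genes. Fibrillar collagens bundle into the fibres of connective tissue, type IV collagens form the sheet of basement membranes beneath epithelia, and type VI collagen forms beaded filaments around cells. FACIT collagens bind the surface of fibrils, multiplexins sit in basement membrane zones, and transmembrane collagens are held in the plasma membrane. Most collagen in tissue is made by fibroblasts, and carcinoma cells make and remodel it as well. The 44 genes comprised 11 fibrillar, 6 basement membrane network, 5 beaded filament, 10 FACIT, 2 multiplexin, 4 transmembrane, 1 anchoring fibril, 3 short-chain network and 2 other members.

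The 6 type IV genes lie as 3 head-to-head pairs, COL4A1 with COL4A2 on chromosome 13, COL4A4 with COL4A3 on chromosome 2 and COL4A6 with COL4A5 on chromosome X. In RefSeq on GRCh38.p14 the starts of COL4A1 and COL4A2 are 127 bases apart, those of COL4A4 and COL4A3 419 bases, and those of COL4A6 and COL4A5 380 or 1416 bases, depending on the COL4A6 start taken. For the latter pairs, the part of the 250 bases before COL4A3 and before COL4A5 that lies in no exon of GENCODE 29 is shown, because the results below compare the genes on either side of them. Both are RefSeq promoter sequence of the + strand, 5′ to 3′, at chr2:227164454-227164564 for COL4A3 and chrX:108439588-108439837 for COL4A5. Capitals mark matches on either strand to GGGCGG, the core of a GC box, or CCAAT.
COL4A3: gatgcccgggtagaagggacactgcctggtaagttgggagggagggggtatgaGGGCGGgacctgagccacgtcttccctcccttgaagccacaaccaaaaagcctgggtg
COL4A5: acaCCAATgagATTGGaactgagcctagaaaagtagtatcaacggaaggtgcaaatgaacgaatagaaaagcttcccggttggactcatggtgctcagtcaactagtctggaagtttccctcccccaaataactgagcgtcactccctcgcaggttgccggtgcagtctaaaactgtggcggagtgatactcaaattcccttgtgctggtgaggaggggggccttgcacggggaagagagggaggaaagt
The 111 bases before COL4A3 hold 1 GGGCGG and 0 CCAAT, and the 250 bases before COL4A5 hold 0 GGGCGG and 2 CCAAT. Neither stretch holds TATAAA, searched on both strands like the other motifs, which do not overlap each other. Over 35116 RefSeq promoter windows of 300 bases (250 before to 50 after a start), 45.0% held GGGCGG, 34.6% CCAAT and 11.5% TATAAA. For collagen genes the table holds 44 windows of 32 genes, some with several starts, and 24 of these windows (54.5%) held GGGCGG, 14 (31.8%) CCAAT and 8 (18.2%) TATAAA. These matches describe letters in the windows only.

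Library totals ran from 61168373 to 99593214 counts, and levels below are CPM (counts per 1000000 counts) on 1 scale over all 44 libraries. EP300, which encodes p300, stood at 83.4 to 181 CPM across the libraries. In culture it was at 111 to 117 CPM in WT, 172 to 177 in het1, 141 to 146 in het2 and 176 to 181 in homo. At day 30 it was at 85.2 to 93.9 CPM in WT, 94.3 to 108 in het1, 87.0 to 131 in het2 and 138 to 145 in homo. Counts per gene cannot show whether its TAZ2 part is present. The 8 epithelial markers of A549 (such as KRT8, KRT18, EPCAM and CDH1) summed to 14734.5 to 14953.5 CPM in WT culture and to 805.6 to 820.9 CPM in homo culture. At day 30 they summed to 14870.5 to 15568.7 CPM in WT and 5944.8 to 6749.6 CPM in homo. All 8 fell in each of the 3 edited lines, in culture and at day 30. Of all genes, 30.8% to 35.1% fell in these lines in culture and 24.8% to 27.7% at day 30. The fibroblast activation protein FAP, 1 of 9 fibroblast markers read, had 0 counts in WT, het1 and homo culture. It stood at 0.0980 to 0.146 CPM in het2 culture and at 0.354 to 4.63 CPM in every tumour library. Of 8 fibroblast markers tested from culture to day 30 tumours, 7 rose and 1 fell in WT and in het1. The counts were 6 and 1 in het2 and 6 and 2 in homo, where 34.8% to 36.8% of all genes rose and 28.4% to 32.1% fell over the 4 lines. Only 4 of the 9 markers had enough counts to be tested within culture. A marker almost absent in culture, such as FAP, enters through its tumour counts and can then only rise, so these counts describe the tested markers alone. The sources used here do not give the handling of host cell reads, and in tumours fewer cells of a type cannot be told apart from less RNA per cell.

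COL5A2 (ENSG00000204262, chromosome 2, bases 189031896 to 189225312, minus strand), a chain of the type V collagen that co-assembles with type I fibrils, had the highest level per length of the 44 genes in all 12 groups. Counted per kilobase of exon, COL5A2 stood at 48.3 CPM in WT culture, against 10.5 for COL18A1 and 9.36 for COL7A1, the next in order. Of the 44 genes, 11 had a mean of at least 100 CPM in some group, 22 of at least 10 CPM and 30 of at least 1 CPM. The 14 genes under 1 CPM in every group were COL2A1, COL6A3, COL6A5, COL6A6, COL9A1, COL9A2, COL9A3, COL13A1, COL19A1, COL20A1, COL23A1, COL24A1, COL25A1 and COL28A1. Summed over all 44 genes the level was 909.9 ± 8.46 CPM in WT culture (SD, n = 3), 1317 ± 24.9 in het1, 2154 ± 15.1 in het2 and 1261 ± 15.7 in homo. At day 30 the sums were 1378 ± 84.3 CPM in WT (SD, n = 4), 1329.7 ± 144 in het1, 1551 ± 303 in het2 and 2148 ± 158 in homo. By class, basement membrane collagens held 260.2 ± 5.76 CPM in WT culture and 66.5 ± 1.88 in het1 culture, while beaded filament collagens held 12.8 ± 0.579 CPM in WT culture and 99.1 ± 1.52 in homo culture.

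**Figure D1:**
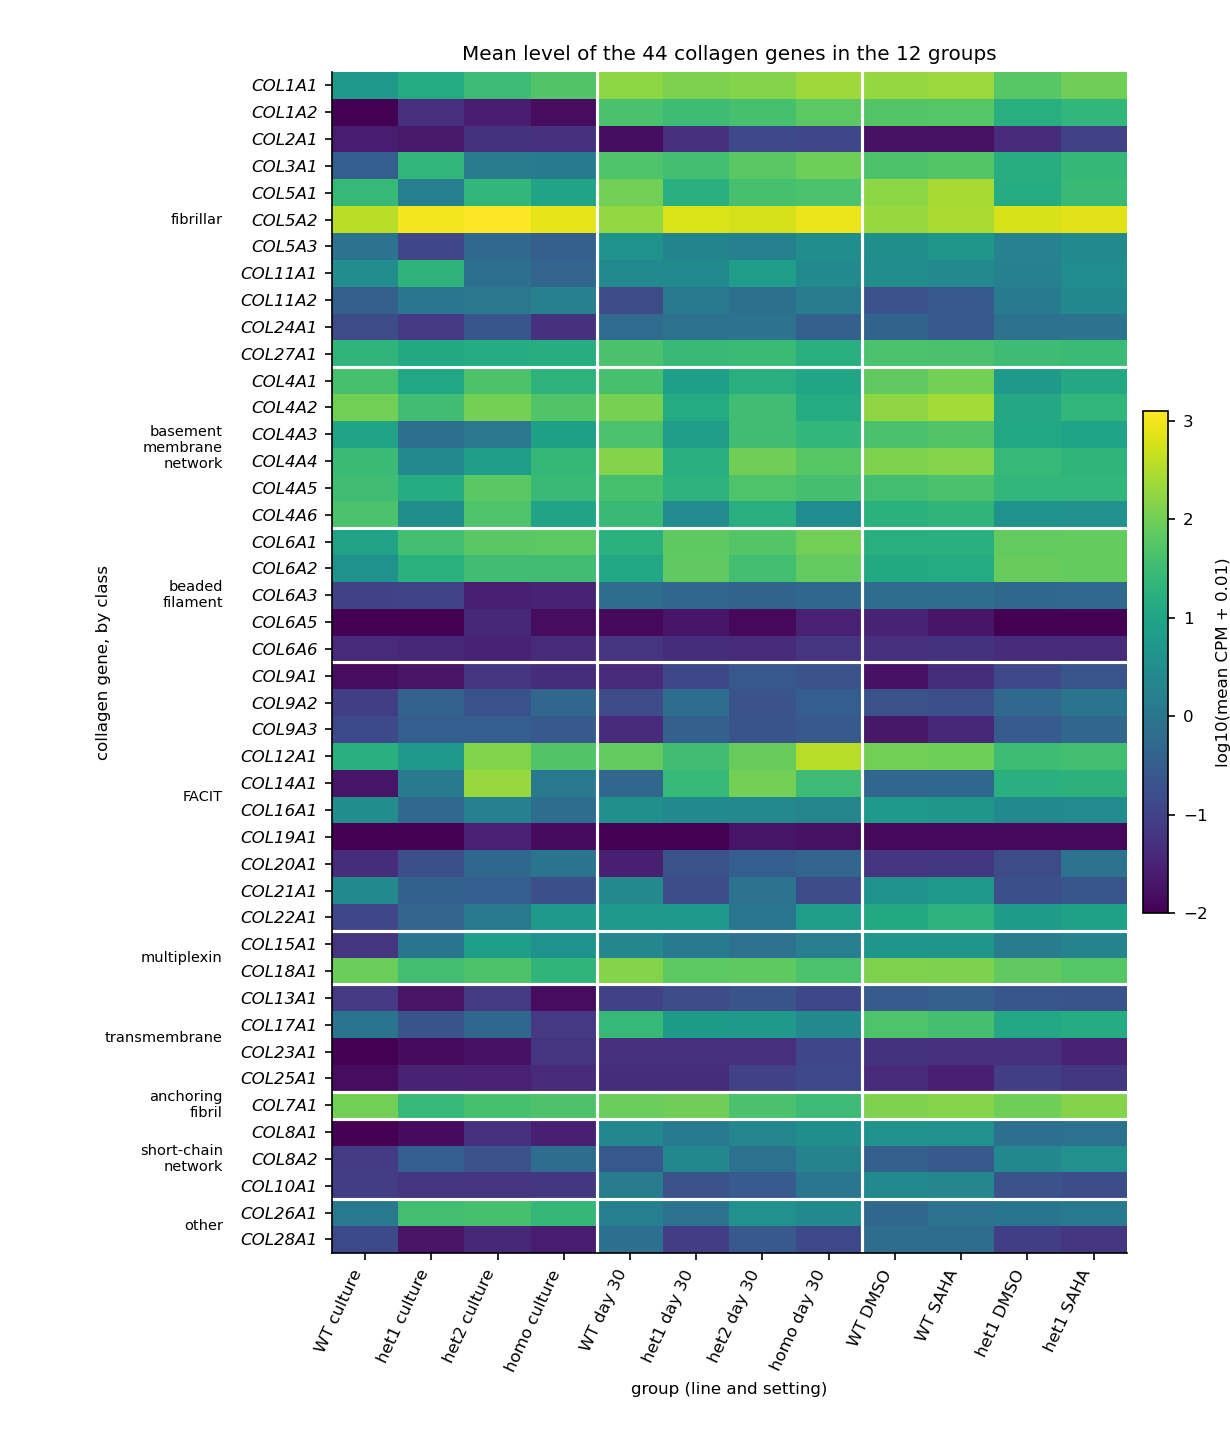
Mean level of each of the 44 collagen genes (rows, ordered by class) in the 12 groups (columns), as log10 of CPM plus 0.01. COL5A2 is the brightest row, COL1A2 and COL8A1 are dark in all 4 cultures and lighter in all 8 tumour groups, and 14 rows stay under 1 CPM (0 on the colour scale).

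The lines were compared with WT by edgeR's quasi-likelihood test, a gene being called when its Benjamini-Hochberg adjusted p over all genes tested was under 0.05, with no minimum fold. In culture 31 collagen genes had enough counts to be tested. In het1, 15 rose (48.4% of those tested, against 32.0% of all genes) and 15 fell (48.4% against 30.8%). In het2, 18 rose (58.1% against 35.1%) and 9 fell (29.0% against 33.3%). In homo, 14 rose (45.2% against 35.4%) and 15 fell (48.4% against 35.1%). The share lowered in het2 was near the background, and the other shares lay above it. Collagen genes tested in culture passed a filter on low counts that a gene can pass through its high group alone, so these shares describe the tested genes and not all 44. Their median log2 fold change was -0.72 in het1, 0.95 in het2 and -0.17 in homo, against 0.03, 0.02 and 0.01 over all genes.

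In day 30 tumours 38 collagen genes passed the same filter on low counts, with the same limit, and were tested. Of these 10 rose and 15 fell in het1 (26.3% and 39.5%, against 26.8% and 24.8% of all genes). In het2 12 rose and 17 fell (31.6% and 44.7%, against 24.4% and 24.8%), and in homo 13 rose and 15 fell (34.2% and 39.5%, against 27.1% and 27.7%). The share raised in het1 was close to the background, and the shares lowered lay above it in all 3 lines. In DMSO tumours, het1 differed from WT by 12 raised and 23 lowered of 38 (31.6% and 60.5%, against 27.3% and 26.8%). The 3 lines share the WT libraries of a table, so their calls are not independent of each other.

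**Figure D2:**
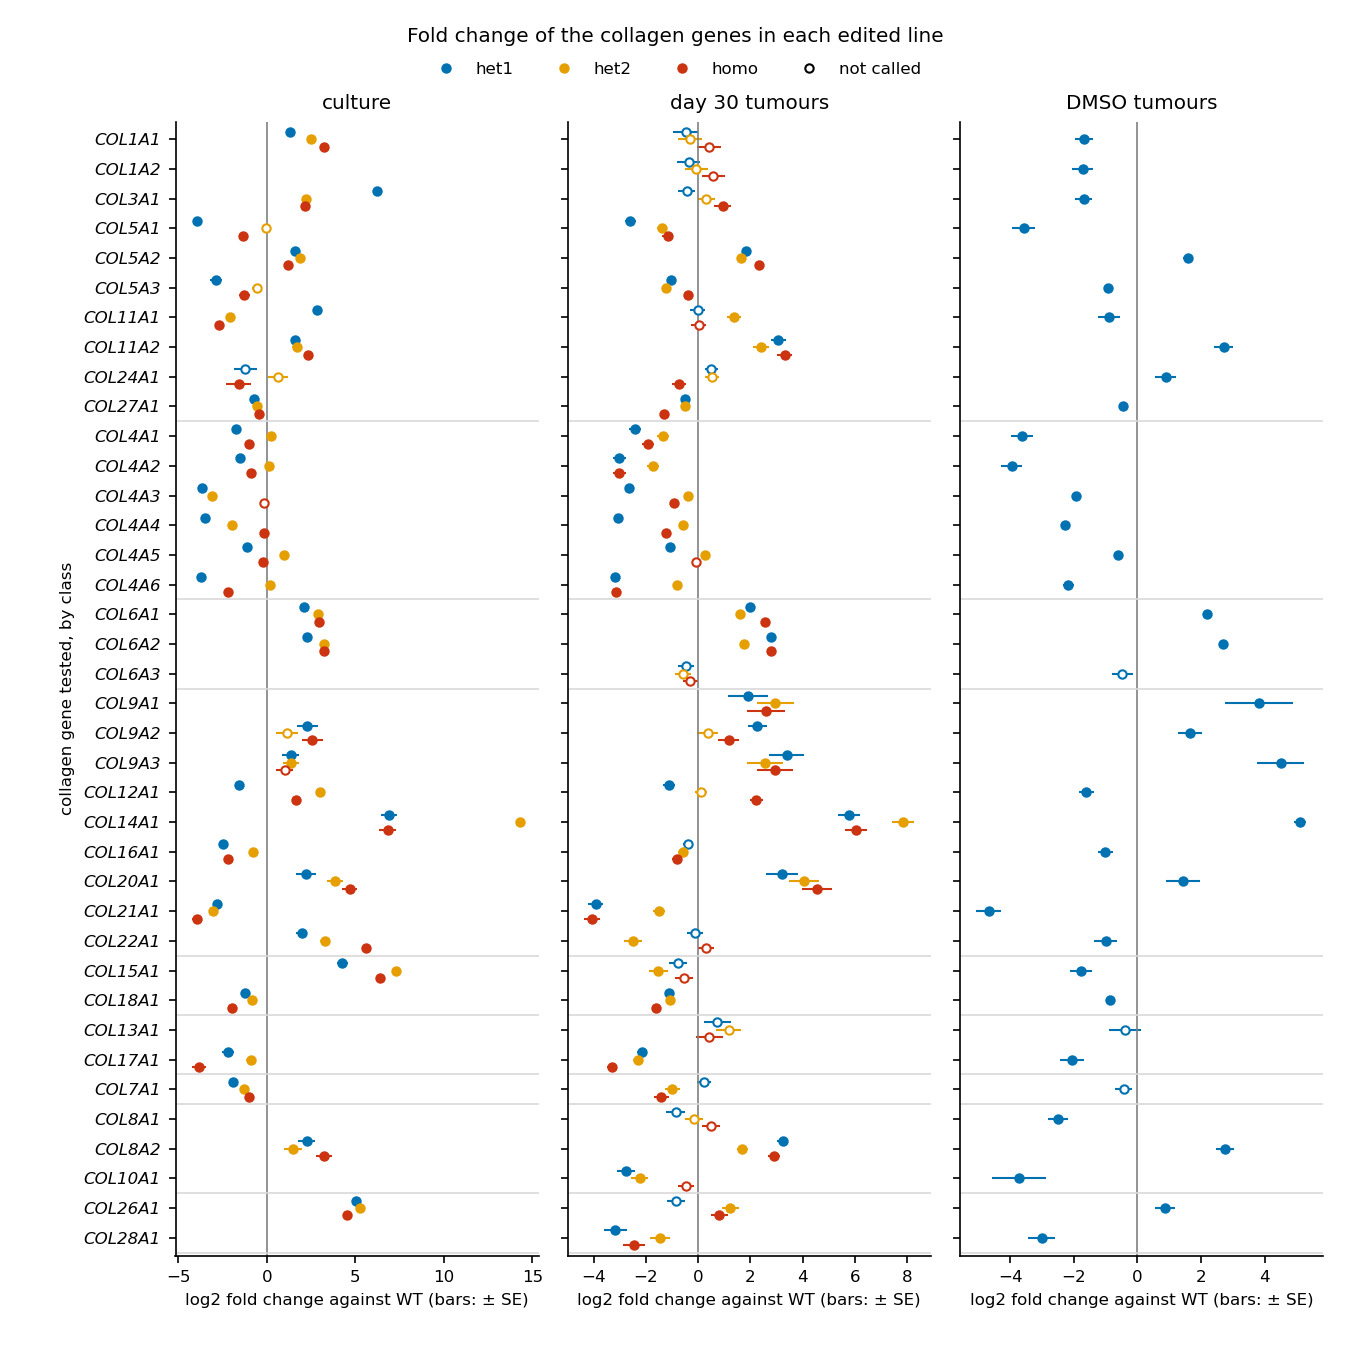
Log2 fold change against WT (x axis, bars ± SE) of every collagen gene tested (y axis, by class) in culture, day 30 tumours and DMSO tumours; filled points passed an adjusted p of 0.05 and open points did not. The 6 type IV genes lie left of 0 in het1 in all 3 panels and COL6A1 and COL6A2 right of 0 in every line; the fitted value of COL14A1 in culture rests on 2 counts in WT.

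Among fibrillar collagens, COL5A2 rose in every line in culture and at day 30, and in het1 in DMSO tumours. In culture its levels were 354, 362 and 365 CPM in WT, 1019, 1041 and 989 in het1, 1244, 1248 and 1229 in het2 and 772, 775 and 806 in homo. At day 30 they were 177, 191, 168 and 189 CPM in WT, 654, 626, 627 and 647 in het1, 665, 581, 536 and 517 in het2 and 1048, 793, 889 and 845 in homo. Every library of an edited line lay above every WT library in both settings. The log2 fold changes were 1.57 ± 0.02 (SE), 1.86 ± 0.02 and 1.21 ± 0.02 for het1, het2 and homo in culture and 1.83 ± 0.08, 1.65 ± 0.08 and 2.32 ± 0.08 at day 30, with the highest edgeR adjusted p at 2.78e-12. In DMSO tumours het1 was at 649, 639, 615 and 586 CPM against 176, 223, 195 and 231 in WT (1.59 ± 0.15).

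COL5A1, the chain that pairs with COL5A2 in the common form of type V collagen, went the other way in het1. It stood at 26.6, 24.6 and 25.2 CPM in WT culture, 1.84, 1.09 and 1.78 in het1, 22.9, 23.4 and 23.6 in het2 and 9.40, 9.02 and 9.74 in homo. The het1 and homo libraries lay below all WT libraries, by log2 fold changes of -3.94 ± 0.09 and -1.36 ± 0.07, and het2 gave -0.05 ± 0.07 (adjusted p = 0.468). At day 30 COL5A1 was at 99.7, 107, 101 and 109 CPM in WT, 19.0, 18.2, 19.3 and 11.5 in het1, 42.1, 42.4, 51.9 and 24.0 in het2 and 41.7, 53.1, 40.8 and 47.3 in homo, and it fell in all 3 lines (-2.60 ± 0.21, -1.39 ± 0.20 and -1.17 ± 0.20). Replicate 4 was the lowest library of both het1 and het2 at day 30, here and for COL1A1, COL1A2 and COL3A1. Per length, COL5A2 exceeded COL5A1 by a ratio of 20.0 to 1429 over the 12 culture libraries and of 1.20 to 84.1 over the 32 tumour libraries. The ratio was 21.3 ± 1.13 in WT culture (SD, n = 3), 1032 ± 344 in het1 culture, 2.62 ± 0.0839 in WT tumours at day 30 (SD, n = 4) and 59.1 ± 16.7 in het1 tumours. COL5A3, a further type V chain, was at 0.770, 0.817 and 0.951 CPM in WT culture and 0.105, 0.0514 and 0.171 in het1, where it fell by 2.87 on the log2 scale. It also fell in homo culture (-1.27 ± 0.31) and in the day 30 tumours of all 3 lines; at day 30 its homo call (-0.38 ± 0.13) passed the threshold without 5 of the 8 libraries left out in turn and missed it without WT replicate 0, homo replicate 0 or homo replicate 1, with adjusted p up to 0.0778.

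**Figure D3:**
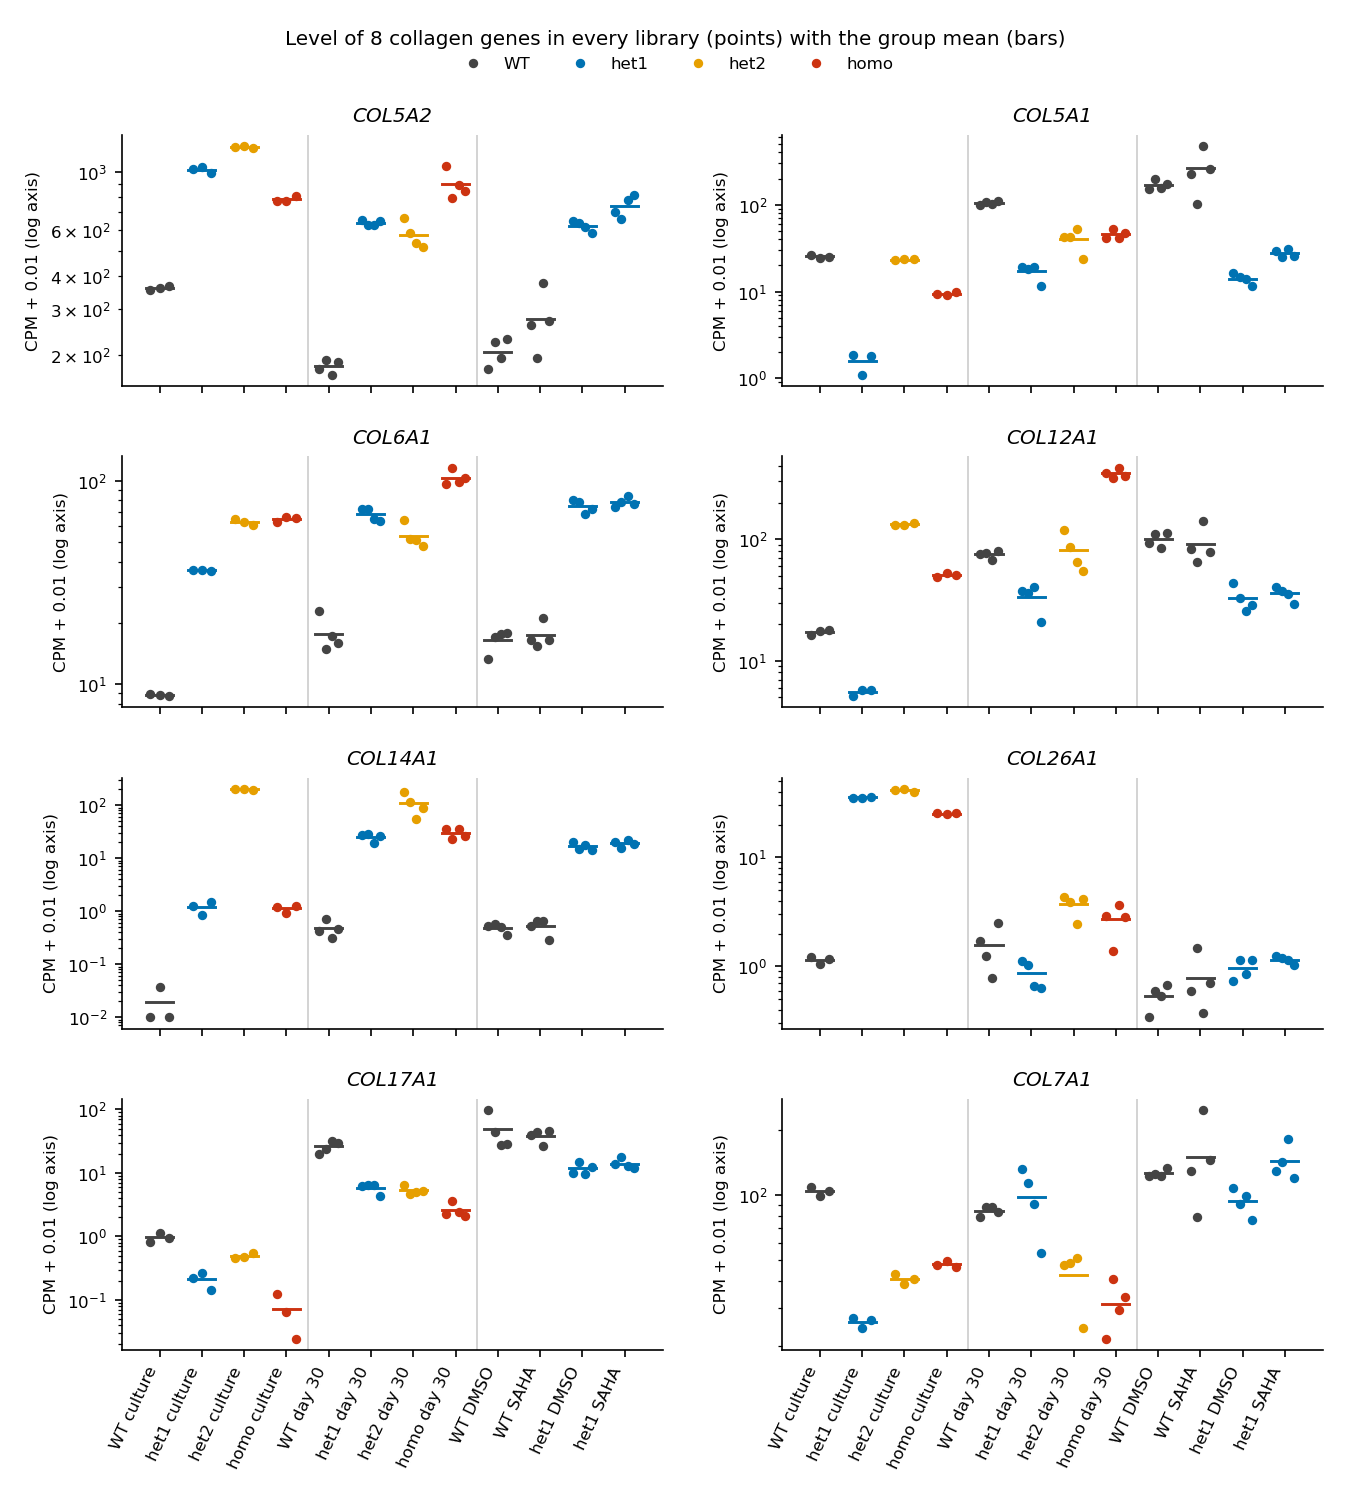
Level of 8 collagen genes in every library, as CPM plus 0.01 on a log axis (y), by group (x); points are libraries, bars are group means and colours are lines. The WT points lie below those of the edited lines for COL5A2, COL6A1 and COL14A1 in every setting, and COL26A1 is at 24.8 to 42.4 CPM in the cultures of the 3 edited lines and at most 4.35 CPM elsewhere.

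COL11A1 and COL11A2 encode chains of type XI collagen, which is close to type V and nucleates cartilage fibrils. COL11A1 separated the cultures of the lines in both directions, with 3.30, 2.56 and 3.38 CPM in WT, 19.9, 22.1 and 20.1 in het1, 0.539, 0.992 and 0.567 in het2 and 0.432, 0.465 and 0.467 in homo. Its log2 fold changes were 2.82 ± 0.10 in het1, -2.09 ± 0.15 in het2 and -2.68 ± 0.17 in homo. At day 30 it was called only in het2 (1.37 ± 0.28), with 7.62, 10.2, 7.34 and 3.83 CPM against 2.28, 3.43, 1.93 and 3.49 in WT, and gave -0.01 ± 0.29 in het1 and 0.02 ± 0.29 in homo. COL11A2 stayed low but rose in every line, from 0.353, 0.286 and 0.390 CPM in WT culture to 1.52, 1.97 and 1.46 in homo culture, and from 0.0495, 0.152, 0.120 and 0.230 CPM in WT tumours to 1.23, 1.63, 1.38 and 1.28 in homo tumours. Its log2 fold changes ran from 1.60 ± 0.23 (het1 culture) to 3.31 ± 0.29 (homo, day 30). COL27A1, a fibrillar collagen of cartilage, fell in all lines in culture and at day 30 and in het1 DMSO tumours, by 0.45 to 1.32 on the log2 scale. COL24A1 passed the threshold in homo culture (-1.57 ± 0.70) and homo tumours (-0.73 ± 0.28), and in the opposite direction in het1 DMSO tumours (0.88 ± 0.32). All 3 calls were fragile. The first was lost without WT replicate 2 or 3 or homo replicate 1 or 3 (adjusted p up to 0.203), and the second without WT replicate 0 or 4 or homo replicate 1 or 4 (up to 0.120). The DMSO call was lost without WT replicate 2 or 7 or het1 replicate 2, 3 or 4 (up to 0.0941). COL2A1, the main cartilage collagen, never exceeded 0.264 CPM in any library.

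The chains of the interstitial collagens of types I and III were read separately in culture and in tumours. In culture COL1A1 was at 6.45, 5.26 and 5.56 CPM in WT, 14.4, 12.6 and 13.9 in het1, 31.2, 29.7 and 30.2 in het2 and 50.0, 54.2 and 47.2 in homo, and it rose in all 3 lines (1.33 ± 0.07, 2.48 ± 0.07 and 3.22 ± 0.06). Its partner COL1A2 had 0 counts in the 3 WT libraries and at most 0.0643 CPM in any culture library, so COL1A1 transcript was present with almost none of the other type I chain. COL3A1, which forms type III collagen, was at 0.337, 0.327 and 0.287 CPM in WT culture and 21.5, 22.6 and 22.7 in het1, with log2 fold changes of 6.21 ± 0.14 in het1, 2.22 ± 0.19 in het2 and 2.14 ± 0.20 in homo. COL1A1 ranged from 43.9 to 280.3 CPM over the 16 tumour libraries of day 30, the lines overlapped WT, and none of the 3 differences was called (-0.49 ± 0.46, -0.32 ± 0.46 and 0.41 ± 0.46). COL3A1 was called at day 30 in homo (0.94 ± 0.33), a call lost without WT replicate 0, 2 or 4 or homo replicate 0 (adjusted p up to 0.0783). In DMSO tumours COL1A1, COL1A2 and COL3A1 all fell in het1: COL1A1 was at 66.6, 64.8, 53.7 and 54.6 CPM against 153, 232, 176 and 212 in WT (-1.69 ± 0.29), and the changes of COL1A2 and COL3A1 were -1.73 ± 0.33 and -1.69 ± 0.27. Markers of other cell types were read in the same comparison, in which 27.3% of all genes were raised and 26.8% lowered. Of 8 fibroblast markers tested 4 were raised and 3 lowered in het1, and the list of 9 had a sum between 38.1 and 46.4 CPM with het1 and between 26.3 and 83.9 CPM with WT, with DPT at 0 in both. Of 7 smooth muscle and pericyte markers 0 were raised and 4 lowered, and their sum was 73.9 to 84.0 CPM in the WT libraries and 25.5 to 30.5 CPM in those of het1. In culture this list already summed to 77.9 to 84.3 CPM in WT and to 20.1 to 20.4 CPM in het1. Of 6 endothelial markers tested 0 were raised and 3 lowered, and the sum of that list was 3.56 to 3.77 CPM with WT and 0.963 to 1.46 CPM with het1. Among 5 myeloid markers 1 was raised and 3 lowered, and among 8 skeletal muscle markers 0 were raised and 2 lowered. The part of these cell types in the collagen differences was not tested.

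All 6 type IV genes fell in het1 in culture, at day 30 and in DMSO tumours, where 30.8%, 24.8% and 26.8% of all genes fell. The lines differed from each other. COL4A1 and COL4A2 form the type IV collagen found in nearly all basement membranes. In culture COL4A1 was at 39.8, 40.9 and 41.3 CPM in WT, 11.3, 12.5 and 10.9 in het1, 45.7, 46.1 and 46.3 in het2 and 19.2, 18.2 and 20.4 in homo. COL4A2 was at 102, 101 and 102 CPM in WT, 34.0, 34.2 and 33.5 in het1, 106, 106 and 102 in het2 and 49.8, 53.0 and 51.1 in homo. Both fell in het1 (-1.75 ± 0.05 and -1.51 ± 0.03) and homo (-1.00 ± 0.05 and -0.91 ± 0.03), and both rose in het2 by less (0.25 ± 0.04 and 0.12 ± 0.03), where the COL4A2 libraries overlapped those of WT. At day 30 COL4A2 was at 100.3, 121, 101 and 119 CPM in WT, 13.8, 13.6, 16.1 and 10.4 in het1, 29.9, 34.2, 49.9 and 20.4 in het2 and 10.4, 16.3, 12.2 and 14.7 in homo. It fell in all 3 lines (-3.02 ± 0.24, -1.73 ± 0.23 and -3.03 ± 0.25), as did COL4A1 (-2.43 ± 0.23, -1.35 ± 0.22 and -1.93 ± 0.22). In DMSO tumours COL4A1 was at 6.01, 6.21, 4.20 and 6.04 CPM in het1 against 52.4, 87.8, 67.8 and 70.4 in WT (-3.63 ± 0.36). COL4A2 was at 12.4, 12.7, 9.41 and 12.1 CPM in het1 against 149, 224, 172 and 179 in WT (-3.95 ± 0.33), and no het1 library reached the lowest WT library for either gene. COL4A2 shares exon sequence with the antisense genes COL4A2-AS1 and COL4A2-AS2. The library kit marks strand, but whether the counting used it is not stated in the labels.

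COL4A3 and COL4A4, which with COL4A5 build the basement membranes of kidney and lung alveoli, were called in the same direction in het1 and het2. In culture COL4A3 was at 9.17, 9.71 and 9.82 CPM in WT, 0.914, 0.656 and 0.553 in het1, 1.20, 1.03 and 1.01 in het2 and 7.93, 7.99 and 7.99 in homo. COL4A4 was at 27.0, 29.6 and 31.2 CPM in WT, 2.99, 2.16 and 2.29 in het1, 7.18, 6.43 and 7.64 in het2 and 24.2, 25.9 and 23.7 in homo. Both fell in het1 (-3.67 ± 0.12 and -3.48 ± 0.09) and in het2 (-3.07 ± 0.11 and -1.97 ± 0.07). In homo culture COL4A3 gave -0.18 ± 0.09 (adjusted p = 0.0721) and COL4A4 -0.17 ± 0.07, a call lost without WT replicate 2 or 3 or homo replicate 1 or 3 (adjusted p up to 0.141) and with a filter at a mean of 1 CPM (0.0851). At day 30 COL4A4 was at 138, 147, 146 and 131 CPM in WT, 14.9, 11.9, 21.3 and 18.0 in het1, 103, 103, 92.8 and 85.1 in het2 and 49.5, 71.7, 58.7 and 55.7 in homo, and it fell in each line (-3.07 ± 0.15, -0.57 ± 0.14 and -1.24 ± 0.14). COL4A3 fell there too (-2.64 ± 0.14, -0.39 ± 0.13 and -0.93 ± 0.13), but its call in het2 missed the threshold on leaving out replicate 2 of WT or replicate 3 or 4 of het2 (adjusted p up to 0.0621). The het2 line held 1.20, 1.03 and 1.01 CPM of COL4A3 in culture and 37.5, 36.8, 31.9 and 31.7 at day 30. Per length COL4A4 exceeded COL4A3 by 2.66 to 6.87 in culture, with 2.77 ± 0.109 in WT (SD, n = 3) and 5.98 ± 0.780 in het2, and by 1.63 to 3.17 in the 32 tumour libraries.

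COL4A5 and COL4A6, on chromosome X, changed by different amounts. COL4A6 was at 44.7, 45.0 and 45.5 CPM in WT culture, 3.24, 3.20 and 3.47 in het1, 47.1, 50.5 and 48.8 in het2 and 9.51, 9.66 and 8.64 in homo. COL4A5 was at 31.4, 33.8 and 36.0 CPM in WT culture, 15.1, 14.9 and 13.6 in het1, 60.1, 63.7 and 61.8 in het2 and 28.0, 27.1 and 26.0 in homo. COL4A6 fell in het1 and homo (-3.70 ± 0.06 and -2.20 ± 0.05) by more than COL4A5 (-1.14 ± 0.05 and -0.24 ± 0.05), and het2 was above WT for both (0.19 ± 0.04 and 0.95 ± 0.05). At day 30 homo tumours held COL4A6 at 3.59, 2.47, 3.20 and 2.80 CPM against 29.3, 24.1, 25.5 and 28.0 in WT (-3.13 ± 0.13). COL4A5 stood at 42.1, 35.2, 40.7 and 35.2 CPM in the same homo tumours against 44.0, 37.0, 40.6 and 41.1 in WT (-0.07 ± 0.08, adjusted p = 0.489). The ratio of COL4A5 to COL4A6 per length was 0.585 ± 0.0338 in WT culture (SD, n = 3), 3.45 ± 0.336 in het1 culture, 1.19 ± 0.0418 in WT tumours (SD, n = 4) and 10.0 ± 0.814 in homo tumours. Over all libraries it ran from 0.550 to 11.1, against 0.786 to 2.35 for COL4A2 to COL4A1; no test of the ratios was run.

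**Figure D4:**
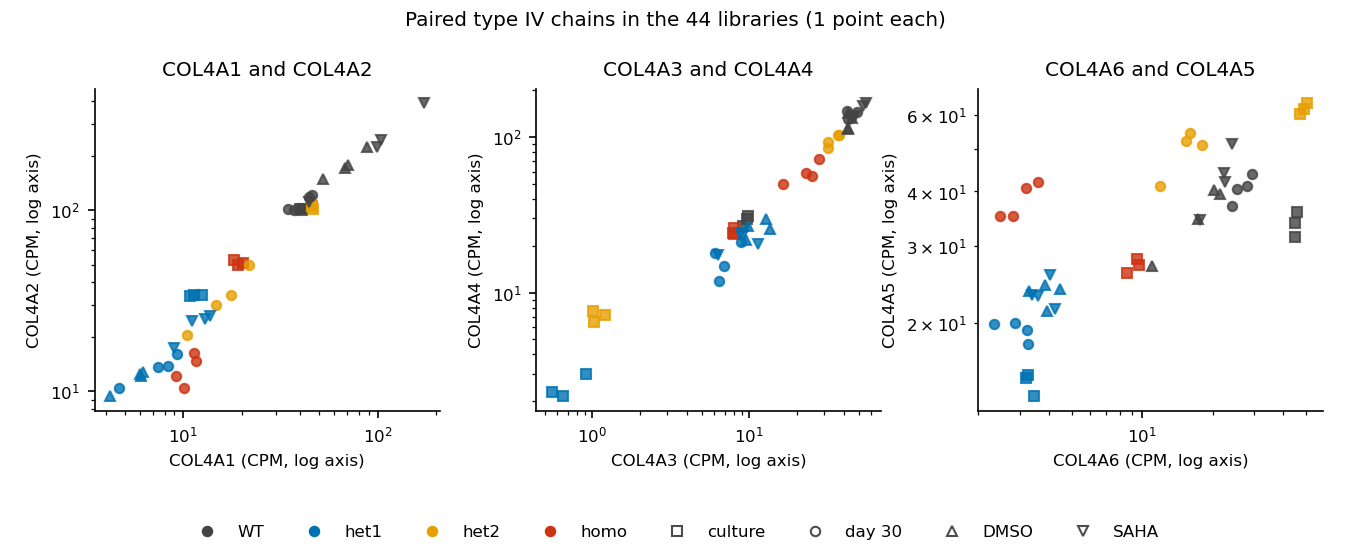
Levels of the 2 genes of each head-to-head type IV pair in the 44 libraries (both axes CPM, log scale); colours are lines and symbols are settings. Points of COL4A1 with COL4A2 and of COL4A3 with COL4A4 lie near a diagonal, while COL4A5 stays between 13.6 and 63.7 CPM over a range of COL4A6 from 2.32 to 50.5 CPM.

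COL6A1 and COL6A2, neighbours on chromosome 21 (bases 45981737 to 46005050 and 46098097 to 46132849, plus strand) whose products form type VI collagen with 1 further chain, rose in all lines. In culture COL6A1 was at 8.90, 8.77 and 8.71 CPM in WT, 36.2, 36.4 and 36.1 in het1, 64.6, 62.5 and 60.8 in het2 and 62.6, 66.3 and 65.5 in homo. COL6A2 was at 4.41, 3.61 and 3.64 CPM in WT, 17.2, 17.8 and 18.3 in het1, 35.0, 35.3 and 33.7 in het2 and 35.1, 34.3 and 33.3 in homo. Edited lines did not overlap WT for either gene, and the log2 fold changes were 2.12 ± 0.04, 2.91 ± 0.04 and 2.96 ± 0.04 for COL6A1 and 2.27 ± 0.06, 3.24 ± 0.06 and 3.23 ± 0.06 for COL6A2. At day 30 COL6A2 was at 12.8, 9.91, 9.73 and 10.3 CPM in WT, 75.2, 81.7, 71.3 and 61.2 in het1, 45.0, 34.6, 33.8 and 31.5 in het2 and 65.9, 84.7, 65.6 and 75.2 in homo (2.78 ± 0.13, 1.74 ± 0.13 and 2.79 ± 0.13). COL6A1 rose there by 1.97 ± 0.12, 1.58 ± 0.12 and 2.57 ± 0.12, and in DMSO tumours het1 exceeded WT by 2.20 ± 0.10 for COL6A1 and 2.70 ± 0.10 for COL6A2. COL6A3, that further chain in the common form, was at most 0.211 CPM in culture and 0.211 to 1.05 CPM in tumours, and none of its differences between lines in tumours was called (-0.47 ± 0.30, -0.59 ± 0.30 and -0.30 ± 0.30 at day 30). Per length COL6A1 exceeded COL6A3 by 62.2 to 1131 in the 32 tumour libraries. COL6A5 and COL6A6, its alternatives, had no group mean above 0.0274 and 0.0504 CPM.

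Of the 10 FACIT genes 8 were tested in culture, where 5 rose and 3 fell in het1 (62.5% and 37.5%, against 32.0% and 30.8% of all genes). In het2 and in homo 5 rose and 2 fell (62.5% and 25.0%, against 35.1% and 33.3% in het2 and 35.4% and 35.1% in homo), and the lowered shares were near or below the background. COL14A1 and COL12A1, which decorate type I fibrils, had the highest levels of the class. COL14A1 had 2 counts in the WT cultures and stood at 1.25, 0.836 and 1.52 CPM in het1, 199.7, 202 and 197 in het2 and 1.21, 0.930 and 1.27 in homo. The ratio to WT was 134 in het1 (95% exact interval 36.7 to 1111), 22252 in het2 (6160 to 183742) and 127 in homo (34.7 to 1051). In tumours COL14A1 was at 0.408, 0.708, 0.299 and 0.461 CPM in WT at day 30, 27.0, 28.7, 19.2 and 26.6 in het1, 177, 113, 55.9 and 89.6 in het2 and 36.2, 23.5, 35.4 and 26.5 in homo. All edited tumours lay above all WT tumours (5.78 ± 0.42, 7.84 ± 0.43 and 6.04 ± 0.42; DMSO, het1, 5.12 ± 0.20). COL12A1 was at 16.1, 17.5 and 17.8 CPM in WT culture, 5.12, 5.71 and 5.72 in het1, 129.9, 130.1 and 137 in het2 and 49.0, 53.1 and 50.6 in homo, which is a fall in het1 (-1.57 ± 0.06) and a rise in het2 and homo (3.02 ± 0.04 and 1.65 ± 0.04). At day 30 it was at 75.5, 77.6, 67.6 and 79.2 CPM in WT, 37.2, 35.9, 40.6 and 20.9 in het1, 119, 85.7, 65.3 and 54.9 in het2 and 354, 319.9, 388 and 331 in homo. It fell in het1 (-1.14 ± 0.23) and rose in homo (2.23 ± 0.24), and het2 overlapped WT (0.10 ± 0.23, adjusted p = 0.750).

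COL22A1, a FACIT of tissue junctions, rose in culture in all lines, from 0.0481, 0.123 and 0.172 CPM in WT to 0.457, 0.373 and 0.527 in het1, 0.988, 1.36 and 1.07 in het2 and 5.39, 6.29 and 5.04 in homo (1.96 ± 0.32, 3.29 ± 0.27 and 5.59 ± 0.23). At day 30 it was at 4.96, 5.11, 4.34 and 7.99 CPM in WT and 0.894, 0.837, 1.92 and 0.342 in het2, and it fell in het2 (-2.49 ± 0.35), with -0.12 ± 0.32 in het1 and 0.30 ± 0.32 in homo. COL21A1 and COL16A1 were lower in the cultures of all 3 lines, COL21A1 by 2.81 to 3.94 and COL16A1 by 0.78 to 2.46 on the log2 scale. COL21A1 fell in all day 30 tumours as well (-3.92 ± 0.29, -1.51 ± 0.24 and -4.07 ± 0.30). COL20A1 rose in each line in culture and at day 30 (log2 fold changes of 2.21 to 4.68) at group means under 1 CPM. The 3 chains of cartilage type IX collagen were also under 1 CPM in every group. COL9A2 rose in het1 and homo in culture (2.28 ± 0.60 and 2.56 ± 0.59) and at day 30 (2.26 ± 0.37 and 1.16 ± 0.39). COL9A3 rose in the day 30 tumours of all 3 lines (3.39 ± 0.66, 2.56 ± 0.69 and 2.94 ± 0.68), as did COL9A1 in het2 and homo (2.95 ± 0.71 and 2.58 ± 0.73). The COL9A1 call in het1 tumours (1.92 ± 0.77) held only without WT replicate 0 or het1 replicate 3 or 4, and its adjusted p reached 0.360 otherwise. COL9A3 shares exon sequence with TCFL5 on the other strand. COL19A1 had 15 counts in all 44 libraries.

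COL17A1, the hemidesmosome collagen that anchors epithelial cells to the basement membrane, was lower in every edited line. In culture it was at 0.818, 1.12 and 0.940 CPM in WT, 0.211, 0.257 and 0.132 in het1, 0.449, 0.465 and 0.546 in het2 and 0.114, 0.0547 and 0.0146 in homo (-2.18 ± 0.33, -0.90 ± 0.29 and -3.81 ± 0.40). At day 30 it was at 19.8, 23.8, 31.8 and 29.5 CPM in WT, 6.31, 6.45, 6.39 and 4.29 in het1, 6.38, 4.69, 5.05 and 5.19 in het2 and 2.24, 3.66, 2.43 and 2.10 in homo (-2.14 ± 0.18, -2.32 ± 0.18 and -3.31 ± 0.20). Every WT library lay above every edited library in both settings. COL7A1, the anchoring fibril collagen that ties the basement membrane to the stroma, fell in the cultures of all lines (-1.92 ± 0.05, -1.26 ± 0.04 and -1.03 ± 0.04). At day 30 it fell in het2 and homo (-1.00 ± 0.29 and -1.42 ± 0.29), and het1, with 132, 113, 91.1 and 53.7 CPM against 79.4, 87.8, 88.2 and 83.2 in WT, was not called (0.22 ± 0.28, adjusted p = 0.546). COL18A1, the multiplexin from which endostatin is cleaved, fell in all lines in culture (-1.24 ± 0.04, -0.84 ± 0.04 and -1.95 ± 0.04) and at day 30 (-1.11 ± 0.12, -1.09 ± 0.12 and -1.61 ± 0.12). It overlaps SLC19A1 on the other strand. Its relative COL15A1 rose in culture in all lines, from a mean of 0.0473 CPM in WT to 7.52 in het2, and at day 30 it fell in het2 (-1.52 ± 0.35) and was not called in het1 or homo. When only the groups compared entered the fit, it was called there in het1 (-0.76, adjusted p = 0.0194) and homo (-0.55, 0.00316). DESeq2 also called it in het1 (adjusted p = 0.0384). Of the other transmembrane collagens, COL13A1 was tested in tumours and not called in any line (0.73 ± 0.50, 1.17 ± 0.48 and 0.42 ± 0.52 at day 30). COL23A1 and COL25A1 had no group mean above 0.110 and 0.126 CPM and were not tested, nor were COL2A1, COL6A5, COL6A6 and COL19A1.

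COL26A1, a collagen outside the main classes, had wide differences from WT in culture and narrow ones in tumours, and the change between settings was not tested. It was at 1.22, 1.05 and 1.16 CPM in WT culture, 35.3, 35.4 and 36.0 in het1, 41.4, 42.4 and 40.1 in het2 and 25.4, 24.8 and 25.3 in homo (5.03 ± 0.07, 5.25 ± 0.06 and 4.55 ± 0.07). At day 30 it was at 1.71, 1.24, 0.778 and 2.49 CPM in WT, 1.11, 1.02, 0.656 and 0.620 in het1, 4.35, 3.87, 2.43 and 4.15 in het2 and 2.88, 1.39, 3.64 and 2.85 in homo, and each edited line overlapped WT. It was called there in het2 (1.23 ± 0.33) and in homo (0.80 ± 0.33, a call that held only without WT replicate 4 or homo replicate 1, with adjusted p up to 0.150 otherwise), and gave -0.86 ± 0.35 in het1. In DMSO tumours COL26A1 was called in het1 in the opposite direction (0.86). That call was lost without WT replicate 2 or 7 or het1 replicate 3 or 5 (adjusted p up to 0.0890). COL8A2, a short-chain collagen of the corneal endothelium, rose in all lines in culture and at day 30, with log2 fold changes of 1.49 to 3.25, and its het2 culture call was lost without het2 replicate 1 (adjusted p = 0.208). COL10A1, the collagen of hypertrophic cartilage, was tested in tumours, where it fell in het1 and het2 (-2.76 ± 0.35 and -2.24 ± 0.33). COL28A1 fell in the day 30 tumours of all 3 lines (-3.17 ± 0.45, -1.46 ± 0.38 and -2.47 ± 0.42) at means of at most 0.707 CPM.

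Several other collagens fell in het1 DMSO tumours. COL8A1, a short-chain collagen of vessel walls, gave -0.86 ± 0.36 in het1 at day 30, which was not called. It was called there by DESeq2 (adjusted p = 0.0475), with a filter at a mean of 1 CPM (0.0471) and when only the groups compared entered the fit (0.00364). In DMSO tumours COL8A1 fell by 2.49 ± 0.30 on the log2 scale. In the same comparison, where 27.3% of all genes were raised and 26.8% lowered, 3 of 6 endothelial markers were lowered and 0 raised. Of 7 smooth muscle and pericyte markers 4 were lowered and 0 raised, and of 8 fibroblast markers 3 were lowered and 4 raised. The smooth muscle and pericyte list also had a lower sum in het1 than in WT culture (20.1 to 20.4 against 77.9 to 84.3 CPM). Counts for the myeloid and skeletal muscle lists are given above. The part of these cell types was not tested. COL15A1 fell as well (-1.78 ± 0.35), as did COL12A1 (-1.60 ± 0.23), COL16A1 (-1.02 ± 0.24) and COL21A1 (-4.68 ± 0.39). COL11A1 (-0.89 ± 0.36) kept its call only without WT replicate 2 or 7 (adjusted p up to 0.151 otherwise), and COL22A1 (-1.00 ± 0.36) only without WT replicate 7 or het1 replicate 3 or 5 (up to 0.0745). COL7A1 was not called (-0.43 ± 0.26, adjusted p = 0.194), though its libraries did not overlap (76.5 to 108 CPM in het1, 122 to 133 CPM in WT). It was called when only the groups compared entered the fit (-0.42, adjusted p = 0.00196).

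The heterozygous lines het1 and het2 differed from each other in most collagen genes tested in culture, by a comparison that was added after the data were seen. In culture 2 genes were higher and 24 lower in het1 than in het2 (6.45% and 77.4% of 31, against 27.6% and 28.1% of all genes). The higher ones were COL11A1 (4.90 ± 0.13) and COL3A1 (3.99 ± 0.10), and the widest gap was COL14A1 (-7.38 ± 0.08), followed by COL12A1 (-4.59 ± 0.05) and COL5A1 and COL4A6 (-3.89 ± 0.09 and -3.89 ± 0.06). At day 30 7 were higher and 13 lower in het1 (18.4% and 34.2% of 38, against 25.4% and 24.0%), and the lowered share stood above the background. All 6 type IV genes were lower in het1 than in het2 in both settings, with log2 fold changes from -0.60 ± 0.16 (COL4A3) to -3.89 ± 0.06 (COL4A6) in culture and from -1.09 ± 0.22 (COL4A1) to -2.50 ± 0.15 (COL4A4) at day 30.

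Day 30 tumours were set against the culture of the same line in 1 fit over 28 libraries, a contrast that also contains any other difference between the experiments and any reads of host cells. In WT 23 of 38 collagen genes rose and 4 fell (60.5% and 10.5%, against 35.0% and 32.1% of all genes). In het1 25 rose and 6 fell (against 36.8% and 28.4%), in het2 21 and 10 (against 35.6% and 30.6%), and in homo 25 and 7 (against 34.8% and 29.3%). The raised shares lay above the background in all 4 lines. A gene almost absent in culture can pass the filter on low counts through the tumours alone and can then only rise. COL1A2 and COL8A1, with 0 counts in WT culture, were such genes, so these shares describe the tested genes and not every collagen gene. COL1A2 went from 0 counts in WT culture to 36.1, 60.2, 32.9 and 43.4 CPM at day 30, at least 3197-fold higher over a floor of 3 counts for the group, and COL8A1 was at least 181-fold higher by the same floor. COL17A1 rose in all 4 lines (4.76 ± 0.23 in WT, 4.86 ± 0.28 in het1, 3.43 ± 0.24 in het2 and 5.33 ± 0.37 in homo), as did COL5A1 (2.02 ± 0.19, 3.44 ± 0.25, 0.77 ± 0.19 and 2.29 ± 0.20). COL4A3 and COL4A4 rose in all 4 lines as well, most in het2 (4.98 ± 0.17 and 3.75 ± 0.16). COL5A2 fell in WT, het1 and het2 (-1.00 ± 0.07, -0.66 ± 0.07 and -1.12 ± 0.07) and rose by 0.19 ± 0.07 in homo. That homo call was lost without homo tumour replicate 0 (adjusted p = 0.123), with no filter (0.0773) and when only the groups compared entered the fit (0.0666). COL26A1 fell in the 3 edited lines (-5.39 ± 0.29, -3.49 ± 0.24 and -3.21 ± 0.25) and gave 0.45 ± 0.33 in WT. COL14A1 fell in het2 (-0.88 ± 0.24), which had the highest culture level (adjusted p = 0.00317, and 0.0714 when only the groups compared entered the fit), and rose in het1 and homo (4.41 ± 0.36 and 4.75 ± 0.37).

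COL1A1, COL1A2, COL3A1 and COL8A1 were read beside markers of host cells. Over the 32 tumour libraries COL1A1 exceeded COL1A2 per length by 3.25 to 5.16 (median 4.24), a narrow span over libraries whose COL1A2 ran from 12.9 to 88.5 CPM. The 9 fibroblast markers summed to 1.62 to 1.70 CPM in WT culture, 5.53 to 6.40 in het1, 11.0 to 12.1 in het2 and 8.90 to 9.52 in homo. At day 30 they summed to 32.0 to 61.7 CPM in WT tumours, 29.5 to 34.6 in het1, 20.1 to 30.4 in het2 and 11.5 to 14.9 in homo. The homo tumours had the lowest sum of these markers and the highest mean of COL1A1, COL1A2 and COL3A1 at day 30. The sum does not stand for the single markers. Of 8 tested there, 4 were raised and 2 lowered in homo against WT (50.0% and 25.0%, against 27.1% and 27.7% of all genes). Of 6 endothelial markers 4 were raised and 1 lowered, and of 5 myeloid markers 3 were raised and 0 lowered. Among 7 smooth muscle and pericyte markers 3 were raised and 1 lowered, and among 8 skeletal muscle markers 1 was raised and 0 lowered. DPT was at 0 in all day 30 tumours but 1 of homo. The 8 endothelial markers summed to at most 0.433 CPM in culture and up to 9.30 CPM in tumours, and the 8 myeloid markers to 1.27 to 6.96 CPM in culture and 5.66 to 15.6 CPM in tumours. The skeletal muscle myosins MYH1, MYH2 and MYH4 were at or near 0 in culture and reached 50.9, 37.2 and 35.3 CPM in WT DMSO replicate 2. The 7 smooth muscle and pericyte markers summed to 20.1 to 89.6 CPM in culture and 25.5 to 96.0 CPM in tumours. The part of host cells of any of these types in the tumour levels was not tested.

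**Figure D5:**
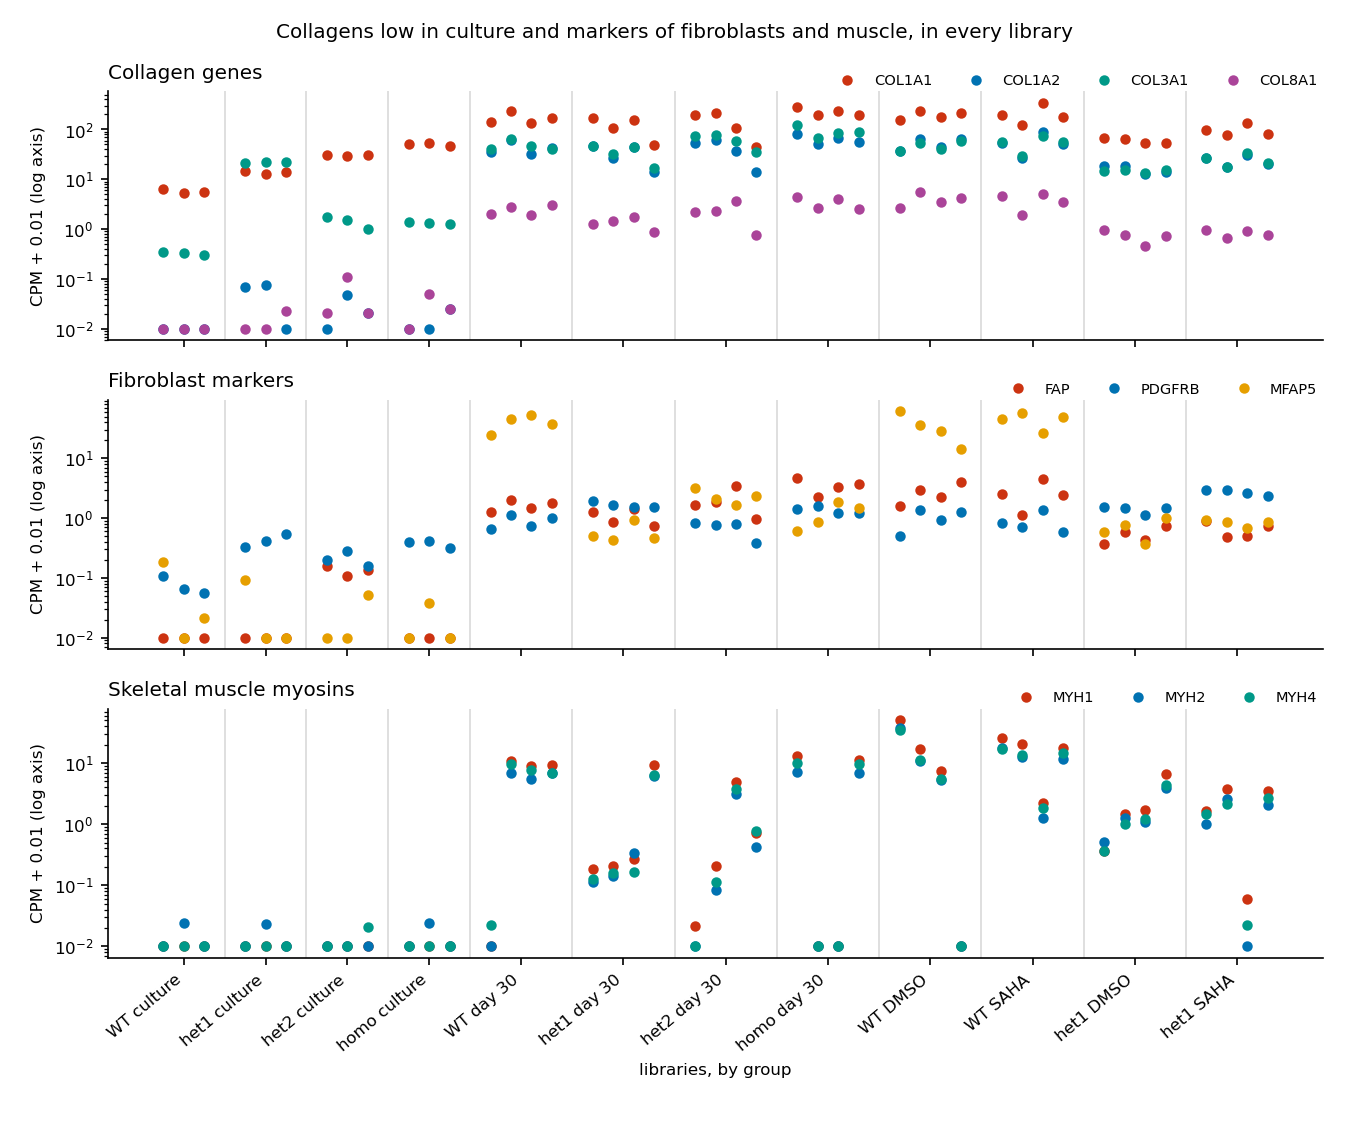
Level of 4 collagens, 3 fibroblast markers and 3 skeletal muscle myosins in each of the 44 libraries (CPM plus 0.01, log axis), ordered by group. COL1A2 and COL8A1 lie at or near the lower limit in culture and rise in all tumours, FAP does so from 0 counts in WT, het1 and homo culture, and the myosins vary by library within a group.

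SAHA left the collagen genes of WT tumours without a call. Of 38 tested, 0 rose and 0 fell by edgeR (0.0% and 0.0% of all genes), 4 had an unadjusted p under 0.05, and DESeq2 called 1. In het1 tumours 4 rose and 1 fell (10.5% and 2.63%, against 7.68% and 9.15% of all genes), the raised share slightly above the background and the lowered share below it. The raised count depended on the processing, with 8 by DESeq2, 7 with a filter at a mean of 1 CPM and 14 when only the groups compared entered the fit. COL20A1 rose by 2.66 ± 0.39 from a mean of 0.139 to 0.873 CPM. COL11A2 was at 1.85, 2.36, 2.50 and 2.65 CPM with SAHA against 1.68, 1.11, 1.21 and 0.852 with DMSO (0.96 ± 0.25, adjusted p = 0.0118), and the groups did not overlap. COL5A3 was at 3.00, 2.51, 2.59 and 3.03 CPM against 2.00, 1.74, 1.69 and 1.79 (0.63 ± 0.13). COL4A2, at 25.9, 17.4, 25.1 and 24.4 CPM against 12.4, 12.7, 9.41 and 12.1 (1.00 ± 0.30), kept its call only without SAHA replicate 2, with adjusted p up to 0.0982 when any other library was left out. COL18A1 fell by 0.32 on the log2 scale.

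The test of whether the SAHA change differed between the lines called 0 collagen genes higher and 0 lower by edgeR (against 2.01% and 2.71% of all genes), with 5 at an unadjusted p under 0.05 and 4 by DESeq2. COL5A1 gave 0.99 ± 0.34 in het1 (adjusted p = 0.0658) and 0.64 ± 0.32 in WT (adjusted p = 0.641). In het1 it was called by DESeq2 (adjusted p = 0.0133), with a filter at a mean of 1 CPM (0.0337) and when only the groups compared entered the fit (3.34e-06). COL4A1 was also not called in het1, but was by the same alternatives (0.00473, 0.0269 and 0.000103). Neither gene was called under the other alternatives run. In WT with SAHA the COL5A1 libraries spread from 102 CPM in replicate 4 to 469 CPM in replicate 6, and COL4A1 and COL4A2 were likewise lowest in replicate 4 and highest in replicate 6. COL1A1 was at 192, 121, 348 and 178 CPM in WT with SAHA and 153, 232, 176 and 212 with DMSO, which overlapped. In het1 it was at 98.5, 78.7, 133 and 80.6 CPM with SAHA and 66.6, 64.8, 53.7 and 54.6 with DMSO, which did not overlap, but it was not called (0.72 ± 0.28, adjusted p = 0.104). It was called when only the groups compared entered the fit (0.72, adjusted p = 0.0335).

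Genes that fold, export, cross-link and bind collagen were read as 4 lists, given below as the number raised and lowered. Of 17 genes for folding and modification in the endoplasmic reticulum, het1 culture had 9 and 6 (52.9% and 35.3%, against 32.0% and 30.8% of all genes), het2 culture 16 and 0 (94.1% and 0.0%, against 35.1% and 33.3%) and homo culture 12 and 3 (70.6% and 17.6%, against 35.4% and 35.1%). At day 30 het1 had 13 and 2 (76.5% and 11.8%, against 26.8% and 24.8%), het2 12 and 1 (70.6% and 5.88%, against 24.4% and 24.8%) and homo 12 and 3 (70.6% and 17.6%, against 27.1% and 27.7%). The raised shares lay above the background in all 6 comparisons. COLGALT2, which glycosylates hydroxylysine, rose in the 3 cultures (3.36 ± 0.32, 4.34 ± 0.29 and 4.54 ± 0.29) from a mean of 0.115 CPM in WT. The lysyl hydroxylase gene PLOD2 rose in het2 culture from 306 to 954 CPM (1.71 ± 0.03), and the chaperone gene FKBP10 rose in the 3 lines at day 30 (1.64 ± 0.06, 1.30 ± 0.06 and 1.38 ± 0.06). P4HA3, a prolyl hydroxylase subunit, fell in het1 and homo culture (-3.03 ± 0.09 and -1.68 ± 0.08).

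Of 10 genes for export and propeptide processing, het1 culture had 5 and 2 (50.0% and 20.0%, against 32.0% and 30.8% of all genes), het2 culture 8 and 1 (80.0% and 10.0%, against 35.1% and 33.3%) and homo culture 7 and 2 (70.0% and 20.0%, against 35.4% and 35.1%). Of the 9 tested at day 30, het1 had 4 and 2 (44.4% and 22.2%, against 26.8% and 24.8%), het2 6 and 1 (66.7% and 11.1%, against 24.4% and 24.8%) and homo 6 and 2 (66.7% and 22.2%, against 27.1% and 27.7%). ADAMTS3, a procollagen N-proteinase, rose in culture by 3.29 ± 0.37 in het1, 7.21 ± 0.22 in het2 and 7.07 ± 0.23 in homo, to means of 0.515, 7.81 and 7.03 CPM. PCOLCE, the enhancer of the C-proteinase, rose at day 30 from 1.69 CPM in WT to 45.8, 28.1 and 49.6 CPM (4.78 ± 0.38, 4.04 ± 0.37 and 4.90 ± 0.38). BMP1, the C-proteinase, fell in the 3 cultures (-1.17 ± 0.04, -0.60 ± 0.04 and -1.23 ± 0.04).

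Of 5 lysyl oxidase genes, which cross-link collagen, het1 culture had 3 and 1 (60.0% and 20.0%, against 32.0% and 30.8% of all genes), het2 culture 3 and 0 (60.0% and 0.0%, against 35.1% and 33.3%) and homo culture 3 and 0 (60.0% and 0.0%, against 35.4% and 35.1%). At day 30 het1 had 2 and 0 (40.0% and 0.0%, against 26.8% and 24.8%), het2 2 and 1 (40.0% and 20.0%, against 24.4% and 24.8%) and homo 3 and 2 (60.0% and 40.0%, against 27.1% and 27.7%). With 5 genes a share moves in steps of 20.0%. LOXL1 rose from a mean of 0.0454 CPM in WT culture by 3.80 ± 0.61, 2.11 ± 0.69 and 3.19 ± 0.64, and LOXL2 rose in het2 culture from 141 to 324 CPM (1.27 ± 0.03).

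Of 8 collagen receptor genes 7 were tested, and het1 culture had 4 and 2 (57.1% and 28.6%, against 32.0% and 30.8% of all genes), het2 culture 6 and 0 (85.7% and 0.0%, against 35.1% and 33.3%) and homo culture 3 and 2 (42.9% and 28.6%, against 35.4% and 35.1%). At day 30 het1 had 3 and 2 (42.9% and 28.6%, against 26.8% and 24.8%), het2 3 and 3 (42.9% and 42.9%, against 24.4% and 24.8%) and homo 3 and 3 (42.9% and 42.9%, against 27.1% and 27.7%). Apart from het2 culture, these counts lay within 2 genes of the background share. ITGA11, the receptor subunit for type I collagen, fell at day 30 from 50.9 CPM in WT to 10.3, 22.3 and 7.47 CPM (-2.29 ± 0.09, -1.21 ± 0.08 and -2.75 ± 0.09). ITGA10 rose in het1 tumours (3.10 ± 0.24), and ITGA1, the subunit of a receptor for types I and IV, rose in the 3 cultures (0.43 ± 0.07, 1.55 ± 0.06 and 1.98 ± 0.06). In DMSO tumours, where 27.3% of all genes were raised and 26.8% lowered, het1 had 12 and 3 for folding (70.6% and 17.6%), 5 and 2 of 9 for export (55.6% and 22.2%), 1 and 2 for cross-linking (20.0% and 40.0%) and 2 and 4 for receptors (28.6% and 57.1%).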

How the data were processed

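RNA-seq of 44 libraries in 12 groups was read from 3 deposited tables of whole-number counts per gene, made by the authors with bcl2fastq, HISAT2, HTSeq and hg38, per the submitters' processing notes, which give no versions. The sources used here do not give the annotation, the strand setting of the counting or the handling of host reads. The gene identifiers were matched to GENCODE release 29, and 45 of 58721 (second Y copies of shared genes) had no match.

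Each comparison used edgeR 4.0.16 (R 4.3.3, limma 3.58.1) with TMM scaling, filterByExpr and the robust quasi-likelihood test, and Benjamini-Hochberg adjustment over all genes tested. Culture (12 libraries), day 30 tumours (16) and treated tumours (16) were fitted separately, and tumours were set against culture in a joint fit. The scripts were tested on simulated data. SE is the log2 fold change divided by the root of F. CPM used 1 TMM scaling over all libraries, and levels between tables, which came from separate experiments, also carry that difference. Per-length levels divide CPM by the union of a gene's exons in kilobases. Exact intervals and floors (3 counts) cover counting error only.

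Members with a group mean of at least 10 CPM and a 4-fold or larger span between groups, up to 14 by span, and their partner chains were described in every library, and other members by ranges or single values. The members and lists were chosen with earlier results of these data known, and the het1 against het2 comparisons were added later. Alternatives were RLE size factors, DESeq2 1.42.0, other filters, a replicate block, fits on the groups compared and leaving out each library.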

Additional observations from a re-analysis of the deposited data

Results flagged for a closer look

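Over 156 combinations of a collagen gene and a group of 4 libraries, 3 had a library far from the other 3, by a test of gap over range that chance meets in about 1 in 20 groups. COL17A1 was at 4.29 CPM in het1 tumours at day 30, replicate 4, against 6.31 to 6.45 CPM in the other 3. COL5A1 was at 11.5 CPM in the same library, against 18.2 to 19.3 CPM. COL4A1 was at 4.20 CPM in het1 tumours with DMSO, replicate 4, against 6.01 to 6.21 CPM.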

How the results depend on the processing

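Of 580 differences of a gene in a comparison, 375 passed the threshold. None of these turned its direction under the alternatives run. Without at least 1 library 29 lost a call and 27 gained one, and under at least 1 other alternative 24 lost and 32 gained one. COL22A1 in het2 tumours against culture, which was not called, ran from -0.71 to 0.08 around -0.19 (log2) when 1 library was left out. With a filter at a mean of 1 CPM, fewer genes were tested: 5 collagen genes were raised in het1 at day 30, 8 in homo at day 30, 6 in het1 with DMSO, 7 by SAHA in het1 and 13 in het2 tumours against culture, and 2 were lowered in WT tumours against culture. DESeq2 called 1 raised by SAHA in WT, 8 raised by SAHA in het1, and 2 raised and 2 lowered for the difference between lines. A fit on the groups compared alone called 14 raised by SAHA in het1, and with no filter 4 were raised in het1 against het2 in culture; the cause was not tested. Leaving out 1 library at a time gave 1 to 2 lowered by SAHA in het1, with 2 without het1 SAHA replicate 2. The difference between lines then gave 0 to 2 raised (1 without WT DMSO replicate 2, 2 without WT SAHA replicate 6) and 0 to 2 lowered (1 without het1 DMSO replicate 4, 2 without het1 SAHA replicate 2). Het1 against het2 in culture gave 2 to 4 raised, with 4 without het1 replicate 2.

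Libraries of a group share replicate numbers with other groups, but nothing in the labels pairs them. Deviations of same-numbered libraries correlated by -0.07 to 0.07 in culture, -0.32 to 0.27 at day 30 and -0.19 to 0.19 in treated tumours, so the numbers do not pair the samples. A replicate block left 556 of the 580 unchanged, with 18 calls lost and 6 gained, and called 1 collagen gene raised and 0 lowered by SAHA in het1, so that COL18A1 missed the threshold there (adjusted p = 0.0849).

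Of the 14 genes under 1 CPM in every group, 6 had too few counts to be tested, and COL19A1 had 15 counts in all libraries.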
